A study of Mus musculus with 24 samples.

Results

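The comparison described here is of fat-specific mineralocorticoid receptor knockout mice (FMRKO) with control mice on a high-fat diet, by RNA sequencing of inguinal white adipose tissue, a subcutaneous depot. It holds 8 of the 24 libraries of the series, 4 FMRKO and 4 control, chosen by their titles, and each FMRKO library was set against the control library with the same replicate number. FMRKO mice carried AdipoqCre and 2 floxed alleles of Nr3c2 (AdipoqCre+, MRflox/flox), and were fed the high-fat diet. Control mice carried the same floxed alleles without the Cre transgene and were fed the same diet. All were male. The other 16 libraries hold the same pair of genotypes with corticosterone or on chow, 4 libraries a group, and serve below for side-by-side values and for a test of the difference of the knockout effect. The adiponectin promoter drives Cre in fat cells, so the other cells of the pad keep the receptor, and the transgene itself was present in FMRKO libraries only: an effect of the transgene and an effect of losing the receptor cannot be told apart. Not given in the sources used here are the composition and duration of the diet and whether each library came from its own animal. The p-values therefore describe the spread among libraries, part of which may be technical.

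The mineralocorticoid receptor is a nuclear receptor that binds aldosterone and also the glucocorticoids corticosterone and cortisol, and acts as a transcription factor at DNA elements it shares with the glucocorticoid receptor. Fat cells express both receptors, together with Hsd11b1, an enzyme that regenerates active glucocorticoid. In obesity, signalling through the mineralocorticoid receptor in fat has been studied for its part in inflammation, fibrosis and adipokine release.

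Total counts ran from 26431823 to 30741641 in FMRKO libraries and from 24178074 to 31598597 in control libraries. Libraries with the same number deviated together from their group means, with correlations of 0.30, 0.63, 0.62 and 0.76 for pairs 1 to 4, and all 8 libraries correlated best with their own number. For FMRKO 1 the margin was narrow, at 0.30 with control 1 against 0.29 with control 4. The labels do not say what the number marks. Fat cell genes were abundant in every library: the mean log2 level (counts scaled to library size, CPM) over 22 adipocyte genes lay between 9.60 and 10.29 in FMRKO and between 9.43 and 10.31 in control libraries. Neighbouring tissue was also present. Pairs 1 and 4 were rich in lymph node transcripts, with a mean log2 CPM over 19 lymphocyte genes of 3.87 and 5.41 in FMRKO and of 4.20 and 5.77 in control libraries, against 0.52 to 1.49 in pairs 2 and 3. Control 3 stood apart in skeletal muscle genes and in hepatocyte genes, and both are given below beside the results they move with.

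The targeted gene, Nr3c2 (GRCm38 chr8:76899442-77245012, plus strand, ENSMUSG00000031618), had 13.5, 14.4, 14.2 and 12.1 CPM in FMRKO libraries 1 to 4, against 17.5, 19.5, 23.3 and 18.2 CPM in control libraries 1 to 4. Each FMRKO library lay below each control. The log2 fold change within pairs was -0.53 ± 0.09 (SE), with adjusted p = 0.0775 in edgeR's quasi-likelihood test, so the gene did not pass the threshold of 0.05 over all 17484 genes tested. As a single value fixed by the design, it was lower in 4 of 4 pairs, with a mean log2 ratio of -0.53 ± 0.15 (SD). The two-sided exact sign-flip p was 0.125, the smallest that 4 pairs allow. A two-sided exact permutation test of 4 against 4 libraries, which ignores the pairing, gave p = 0.0286, the smallest it allows. Nr3c2 reached that value because its groups did not overlap, so the test adds nothing to the lack of overlap. Its adjusted p was 0.0395 without pair 1 and 0.00366 in DESeq2, and ran from 0.00366 to 1 over the alternatives. Reads from undeleted exons and from non-adipocytes are included in these counts, which are therefore no measure of recombination in fat cells.

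The other corticosteroid receptor and metabolism genes, 12 in all with Nr3c2, held 0 past the threshold, and 4 were higher and 1, Nr3c2, lower at an unadjusted p under 0.05. The shares over all genes were 4.26% higher and 6.98% lower. The 4 were H6pd, which supplies NADPH to Hsd11b1, and the receptor chaperone genes Fkbp4, Fkbp5 and Hsp90ab1, each higher in FMRKO in all pairs. H6pd averaged 413 ± 46.1 CPM in FMRKO and 357 ± 65.2 CPM in control libraries (log2 fold change 0.22 ± 0.07, adjusted p = 0.299). Nr3c1, the glucocorticoid receptor, averaged 134 ± 7.06 CPM in FMRKO and 139 ± 11.2 CPM in control libraries (SD, n = 4 each), a log2 fold change of -0.05 ± 0.06 (SE, adjusted p = 0.841). Hsd11b1 averaged 37.5 ± 6.36 CPM in FMRKO and 45 ± 7.26 CPM in control libraries, a log2 fold change of -0.26 ± 0.14 (adjusted p = 0.553). Fkbp5, a chaperone gene induced by both receptors, was at 119, 104, 75.4 and 69.9 CPM in FMRKO libraries and 81.9, 102, 62.5 and 52 CPM in controls, a log2 fold change of 0.31 ± 0.09 (adjusted p = 0.214). Sgk1, a kinase gene known as a mineralocorticoid target in the kidney, averaged 56.4 ± 4.79 CPM in FMRKO and 61.3 ± 16.6 CPM in control libraries (log2 fold change -0.09 ± 0.11, adjusted p = 0.84). These adjusted p-values do not show that the genes were alike in the genotypes.

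Of 17484 genes tested within pairs, 39 passed the threshold (0.223%), 15 of them higher in FMRKO (0.0858%) and 24 lower (0.137%). All 39 had one direction in all 4 pairs, as did 3360 of all genes tested (19.2%). The FMRKO and control libraries did not overlap for 15 of the 39, 8 higher and 7 lower, against 2.41% of all genes. At least 2-fold differences were seen for 7 of the higher and 9 of the lower genes. An unadjusted p under 0.05 was reached by 1965 genes (11.2%). Counts were simulated for this fit with 100 genes changed by a log2 of 1 and 100 by a log2 of 2. There 28 unchanged genes were called, 14.43% of the calls. That share depends on how many genes were changed and does not carry over to the 39. As 28 unchanged genes is not far below 39, the adjusted p-values of the 39 may be too small. The calls depend on the pairing and on the libraries included: 1 gene (Zfp949, 0.00572% of those tested) passed without the pairing, and leaving out pair 1, 2, 3 or 4 left 245, 0, 1 (Slc43a1) and 8 genes. With the pairing kept, 3 genes passed with the hepatocyte score of each library (the mean log2 CPM over the marker list) in the model, of which 1, Bcl6, was among the 39, and 0 with the lymph node score (618 at an unadjusted p under 0.05). Both scores were lower in FMRKO in all 4 pairs, so they run partly with genotype, and each leaves fewer residual degrees of freedom. The drop in calls therefore does not show what the calls rest on. The direction of the 39 genes held under each alternative that gave a value. As the 39 were chosen on these libraries and had one direction in all 4 pairs, this is no separate support for them.

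**Figure D1:**
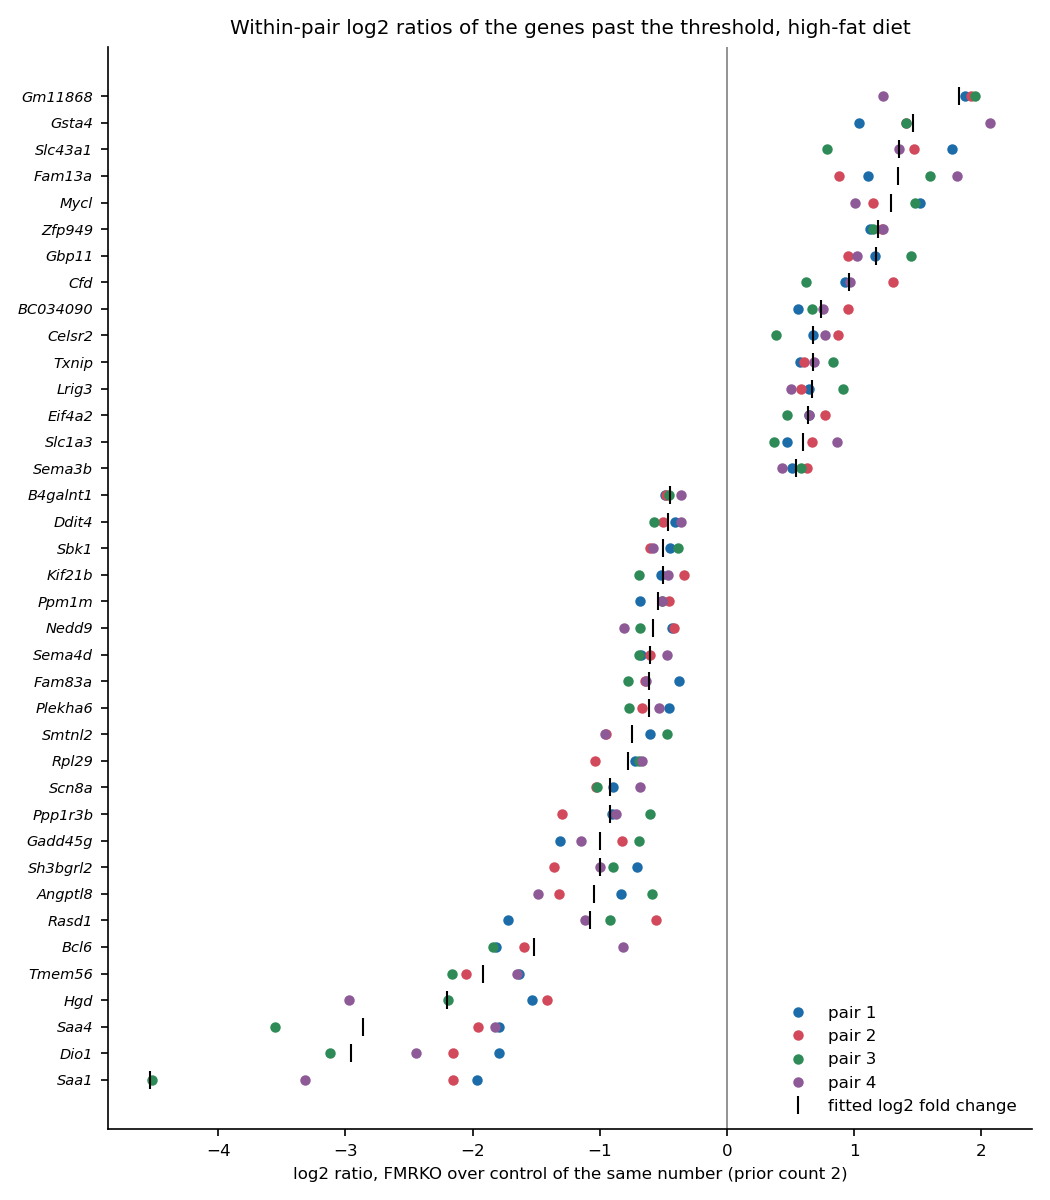
Log2 ratio of FMRKO over the control library of the same number (x axis, prior count 2) for 38 of the 39 genes past the threshold (y axis), 1 point a pair, with the fitted log2 fold change as a vertical tick. All 4 points of a gene lie on one side of 0, from near -4.5 for Saa1 to near 2 for Gsta4.

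Among the 15 genes higher in FMRKO, Zfp949 and Eif4a2 varied least between libraries. Zfp949, a zinc finger protein gene (chr9:88548020-88571061, ENSMUSG00000032425), had 17.4, 16, 16.1 and 17.7 CPM in FMRKO libraries 1 to 4, against 7.92, 6.83, 7.21 and 7.51 CPM in controls 1 to 4, a log2 fold change of 1.19 ± 0.09 (SE, adjusted p = 0.0114). Every FMRKO library was above every control, and the pairs differed little. A short annotated RNA inside Zfp949 on the same strand, Gm26461, stood at 559.9 ± 107 CPM in FMRKO and 778 ± 169 CPM in control libraries (log2 fold change -0.47 ± 0.09, adjusted p = 0.11). Eif4a2, an RNA helicase of translation initiation (ENSMUSG00000022884, chromosome 16, 23107444 to 23114136), was at 192, 185, 165 and 197 CPM in FMRKO and 122, 108, 119 and 126 CPM in control libraries, again without overlap, a log2 fold change of 0.64 ± 0.07 (adjusted p = 0.0192). Its annotation overlaps that of Rfc4 on the other strand, and strand use in the counting is not given in the sources used here.

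Gsta4, a glutathione transferase that clears the lipid peroxidation product 4-hydroxynonenal (ENSMUSG00000032348, chromosome 9, 78191966 to 78209348), had 38.3, 37.2, 32.8 and 21.8 CPM in FMRKO libraries and 18.6, 14, 12.3 and 5.14 CPM in controls. The lowest FMRKO library was above the highest control, and pair 4 was the lowest of both groups. The log2 fold change was 1.46 ± 0.15 (adjusted p = 0.0192). Gm11868, a processed pseudogene, was low but also without overlap, at 2.48, 3.33, 2.47 and 2.28 CPM in FMRKO and 0.624, 0.828, 0.584 and 0.935 CPM in controls (log2 fold change 1.82 ± 0.25, adjusted p = 0.0421). Gbp11, of the family of interferon-inducible GTPases and annotated as a polymorphic pseudogene, had 5.17, 7.45, 6.69 and 4.18 CPM in FMRKO libraries, against 2.26, 3.81, 2.4 and 2.01 CPM in controls (log2 fold change 1.17 ± 0.16, adjusted p = 0.0421). Reads of pseudogenes can be shared with near-identical copies, so both values are uncertain.

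Cfd and Fam13a, both genes of the fat cell, also rose. Cfd, which codes for adipsin, the complement factor secreted by fat cells, had 4216, 4151, 2822 and 1693 CPM in FMRKO libraries 1 to 4, against 2208, 1676, 1829.9 and 867 CPM in controls 1 to 4. The groups overlapped, with FMRKO 4 below controls 1 and 3, but each FMRKO library was above its own control, with a log2 fold change of 0.96 ± 0.12 (adjusted p = 0.0303). Fam13a, a gene linked to fat distribution in human genetic studies, had 251, 252, 153 and 145 CPM in FMRKO and 116, 137, 50.5 and 41.2 CPM in control libraries. FMRKO 1 and 2 were the highest, and FMRKO 3 and 4 were only just above control 2, the highest control. The log2 fold change was 1.35 ± 0.14 (adjusted p = 0.0192), and BB365896, annotated antisense to it, stood at 1.5 ± 0.24 (adjusted p = 0.0642). Without known strand use these 2 genes cannot be told apart.

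Slc43a1, a transporter of large neutral amino acids, had 32.7, 33.9, 16.3 and 17.5 CPM in FMRKO and 9.52, 12.2, 9.45 and 6.8 CPM in control libraries, without overlap, a log2 fold change of 1.36 ± 0.15 (adjusted p = 0.0192). Mycl, the transcription factor L-Myc, had 21.6, 25.5, 11.1 and 12.4 CPM in FMRKO libraries, against 7.49, 11.5, 3.93 and 6.15 CPM in controls (log2 fold change 1.29 ± 0.12, adjusted p = 0.0147). FMRKO 3 was below control 2, so the groups overlapped although each pair went the same way. Txnip, an inhibitor of thioredoxin that also limits glucose uptake, was abundant, with 1209, 1373, 999.5 and 914 CPM in FMRKO and 811, 901, 561 and 569.6 CPM in control libraries, without overlap (log2 fold change 0.67 ± 0.08, adjusted p = 0.0277). Txnip, Gadd45g, Ppp1r3b and Rpl29 were named after their values were seen, as were the called genes given below only by a range, other than BC034090 and Celsr2. The remaining 5 increases were BC034090, the cadherin Celsr2, the membrane protein gene Lrig3, the glutamate transporter Slc1a3 and the secreted semaphorin Sema3b, with log2 fold changes between 0.54 ± 0.07 and 0.74 ± 0.10.

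**Figure D2:**
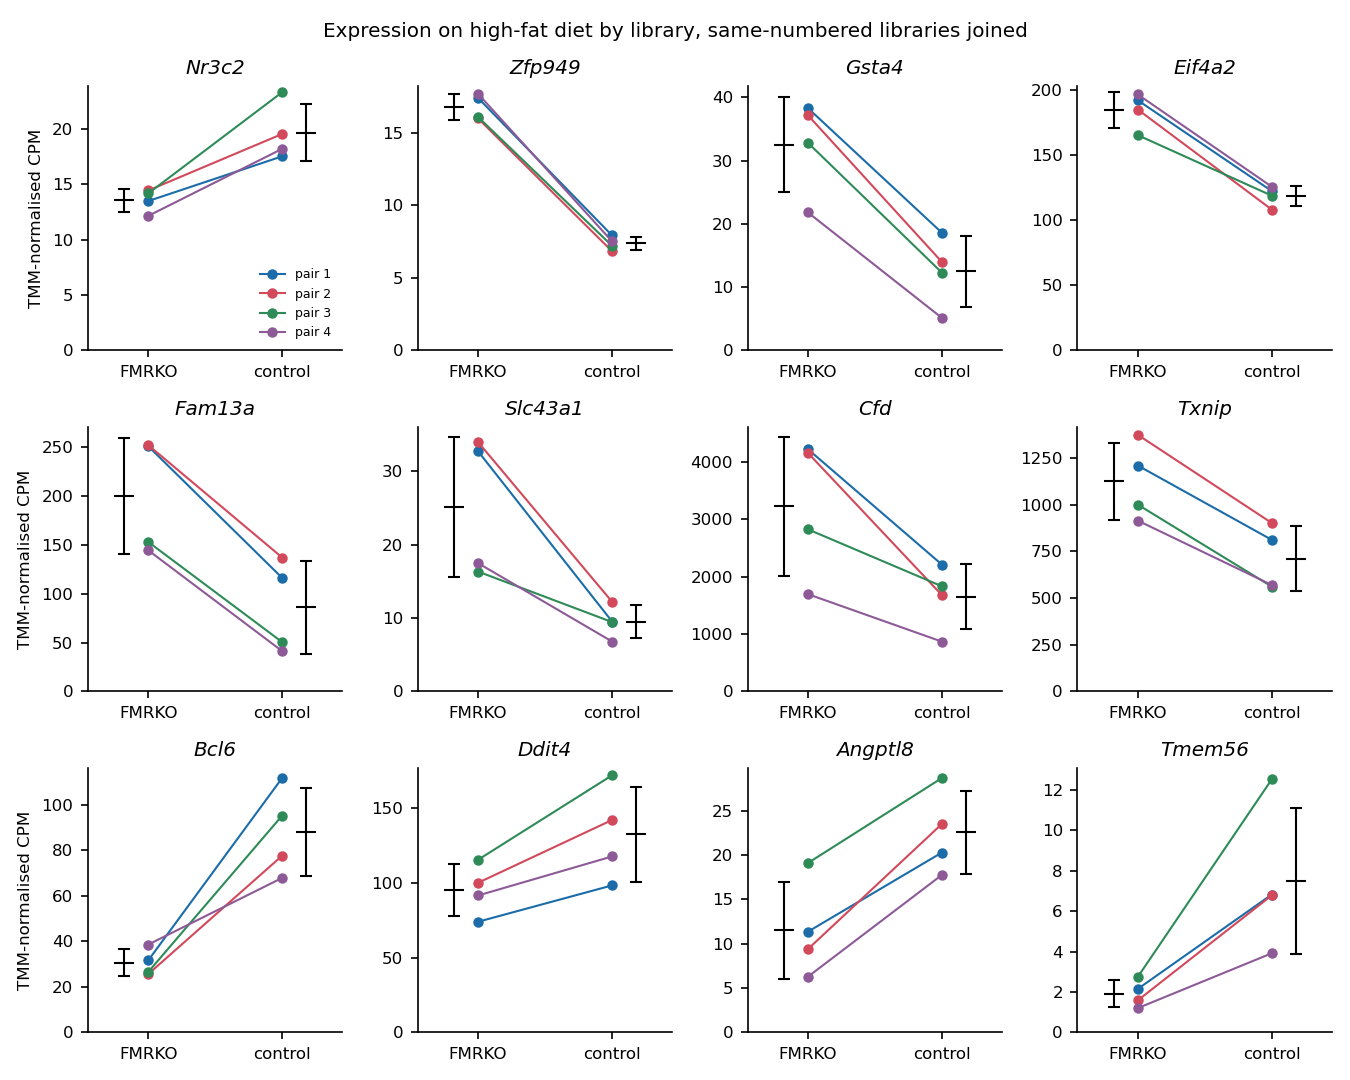
TMM-normalised CPM (y axes, linear and starting at 0) of Nr3c2 and 11 genes past the threshold in the FMRKO and control libraries on high-fat diet, with lines joining the libraries of a pair and black bars for the mean ± SD of a group (n = 4). Zfp949 and Eif4a2 lie close together within each group, while for Cfd and Fam13a the pairs sit at different levels and share a direction.

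Outside the 4 liver-type genes given below, Tmem56 and Bcl6 were among the largest of the decreases. Bcl6, a transcriptional repressor, had 31.6, 25.6, 26.5 and 38.6 CPM in FMRKO libraries 1 to 4, against 112, 77.6, 95.2 and 67.8 CPM in controls 1 to 4. No FMRKO library reached the lowest control, and the difference was smallest in pair 4. The log2 fold change was -1.52 ± 0.16 (adjusted p = 0.0192). Tmem56, a membrane protein gene, had 2.15, 1.59, 2.75 and 1.2 CPM in FMRKO libraries, against 6.83, 6.79, 12.5 and 3.92 CPM in controls, without overlap (log2 fold change -1.92 ± 0.17, adjusted p = 0.0147).

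Angptl8, Ppp1r3b, Rasd1, Ddit4 and Gadd45g also fell. Angptl8, an insulin-induced secreted protein that acts on lipoprotein lipase, had 11.4, 9.4, 19.1 and 6.28 CPM in FMRKO and 20.3, 23.5, 28.7 and 17.8 CPM in control libraries, a log2 fold change of -1.05 ± 0.15 (adjusted p = 0.0447). FMRKO 3 was above control 4, and the other FMRKO libraries were below all controls. Ppp1r3b, a subunit that directs protein phosphatase 1 to glycogen, was at 8.11, 8.96, 16.9 and 7.06 CPM in FMRKO and 15.2, 22.1, 25.8 and 13 CPM in controls (log2 fold change -0.92 ± 0.12, adjusted p = 0.038). Here too FMRKO 3 was the highest of its group and lay within the control range. Rasd1, first described as a dexamethasone-induced Ras-related gene, had 50.6, 81.8, 143 and 55.5 CPM in FMRKO libraries, against 167, 120.4, 270.2 and 120.1 CPM in controls (log2 fold change -1.08 ± 0.16, adjusted p = 0.0496). Ddit4, a corticosteroid-induced inhibitor of mTORC1, had 73.9, 100, 115 and 91.5 CPM in FMRKO and 98.2, 142, 172 and 118 CPM in controls (log2 fold change -0.46 ± 0.06, adjusted p = 0.0421). For both genes the groups overlapped and each pair went the same way. Gadd45g, a growth arrest and stress gene, was at 13.1, 15.7, 22.5 and 9.41 CPM in FMRKO and 32.7, 27.9, 36.4 and 20.9 CPM in control libraries (log2 fold change -1.0 ± 0.11, adjusted p = 0.0238), with overlap through FMRKO 3 and control 4.

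A further 3 decreases were on chromosome 9. Sh3bgrl2 averaged 6.23 ± 1.45 CPM in FMRKO and 12.5 ± 3.01 CPM in control libraries (log2 fold change -1.0 ± 0.13, adjusted p = 0.038). Ppm1m, a protein phosphatase gene, had 58.7, 68.1, 61.8 and 50.2 CPM in FMRKO and 94.4, 93.2, 88.1 and 71.4 CPM in controls, without overlap (log2 fold change -0.54 ± 0.06, adjusted p = 0.0277). Rpl29, a ribosomal protein gene, had 83.6, 77.6, 82.7 and 102 CPM in FMRKO and 138, 159.6, 134 and 162 CPM in controls, also without overlap (log2 fold change -0.78 ± 0.08, adjusted p = 0.0192). Ribosomal protein genes have many near-identical pseudogenes, so the value of Rpl29 is uncertain. Smaller decreases were called for the kinase Sbk1, the adhesion scaffold Nedd9, the sodium channel Scn8a, Smtnl2, Fam83a and Plekha6, with log2 fold changes between -0.92 ± 0.13 and -0.50 ± 0.07.

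Another 3 decreases outside the liver-type genes, also named after their values were seen, followed the lymph node transcripts in level. Sema4d, a semaphorin of lymphocytes, had 21.6, 6.7, 6.96 and 64.7 CPM in FMRKO libraries 1 to 4, against 34.5, 10.2, 11.3 and 89.6 CPM in controls 1 to 4. Kif21b had 70.8, 39.5, 46.7 and 181 CPM in FMRKO and 102, 50, 75.3 and 249.6 CPM in control libraries. B4galnt1 had 39.5, 11.8, 10.7 and 110.2 CPM in FMRKO and 55.4, 16.5, 14.7 and 142 CPM in control libraries. Within each genotype all were highest in library 4 and next in library 1, from the lymph node rich pairs, and each was lower in FMRKO in every pair, with log2 fold changes of -0.61 ± 0.08, -0.50 ± 0.07 and -0.44 ± 0.06 (adjusted p = 0.0347, 0.0447 and 0.0447). The lymph node score was itself lower in FMRKO in all pairs, with differences of -0.33, -0.86, -0.90 and -0.36. Of its 19 genes, 0 were higher and 12 lower at an unadjusted p under 0.05 (4.26% and 6.98% of all genes), with 0 called. The summed level of these genes was 191 to 1247 CPM in FMRKO and 317 to 1735 CPM in control libraries, and in pair 1 the sum was higher in FMRKO, at 698.9 CPM, against 561.4 CPM in control 1. Without pairs 1 and 4 the log2 fold changes of Sema4d, Kif21b and B4galnt1 were -0.64, -0.50 and -0.46 (adjusted p = 0.104, 0.00405 and 0.230, with 2 pairs left). With the lymph node and muscle scores as covariates in place of the pairing, the log2 fold changes were -0.24, -0.12 and -0.17, and none of the 3 passed the threshold. The part of lymph node tissue in these calls was not tested further.

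The 4 decreases with the largest fitted values were liver-type genes at low levels: Saa1 and Saa4 of the serum amyloid A family, Hgd of tyrosine catabolism and the thyroid hormone deiodinase Dio1. Saa4 had 0.861, 0, 1.67 and 0.0601 CPM in FMRKO libraries 1 to 4, against 3.16, 0.207, 20.4 and 0.396 CPM in controls 1 to 4. Saa1 had 0.0662, 0, 0.597 and 0 CPM in FMRKO and 0.468, 0.248, 15.3 and 0.647 CPM in control libraries. Hgd had 0.994, 0.0793, 3.26 and 0.12 CPM in FMRKO and 3, 0.331, 15.2 and 1.44 CPM in control libraries, and Dio1 had 0.265, 0, 0.478 and 0.0601 CPM in FMRKO, against 1.09, 0.248, 4.71 and 0.647 CPM in controls. Control 3 was the highest library for each of the 4. The fitted log2 fold changes (-4.54 ± 0.47, -2.95 ± 0.44, -2.86 ± 0.39 and -2.20 ± 0.30 in the order Saa1, Dio1, Saa4, Hgd, adjusted p = 0.0192, 0.0499, 0.0421 and 0.0421) depend on the prior count where libraries are near 0, and Saa1 has near-identical copies. Without pair 3, Saa4 and Hgd had log2 fold changes of -2.26 and -2.25 (adjusted p = 0.277 and 0.222), and Saa1 and Dio1 did not pass the filter on low counts. All 12 members of a hepatocyte marker list, chosen after these values were seen, were lower at an unadjusted p under 0.05 (6.98% of all genes), and 0 passed the adjusted threshold. Its summed level was 22.7 to 363 CPM in FMRKO and 38.2 to 1908 CPM in control libraries, highest in control 3, and its score differed by -0.42, -0.89, -2.55 and -3.92 in pairs 1 to 4. With the hepatocyte score as a covariate beside the pairing, the adjusted p of Saa1, Dio1, Saa4 and Hgd was 0.409, 0.361, 0.288 and 0.320. In the fit of all 24 libraries, the direction of these 4 genes was the opposite in both other conditions. Their log2 fold changes were 0.92 to 1.45 on chow and 0.24 to 0.99 with corticosterone, each within 2 SE of 0. The hepatocyte genes summed to 10.24 to 2107 CPM in chow FMRKO and 15.65 to 628.7 CPM in chow control libraries. With corticosterone the sums were 154.6 to 1066 CPM in FMRKO and 30.71 to 842 CPM in control libraries.

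**Figure D3:**
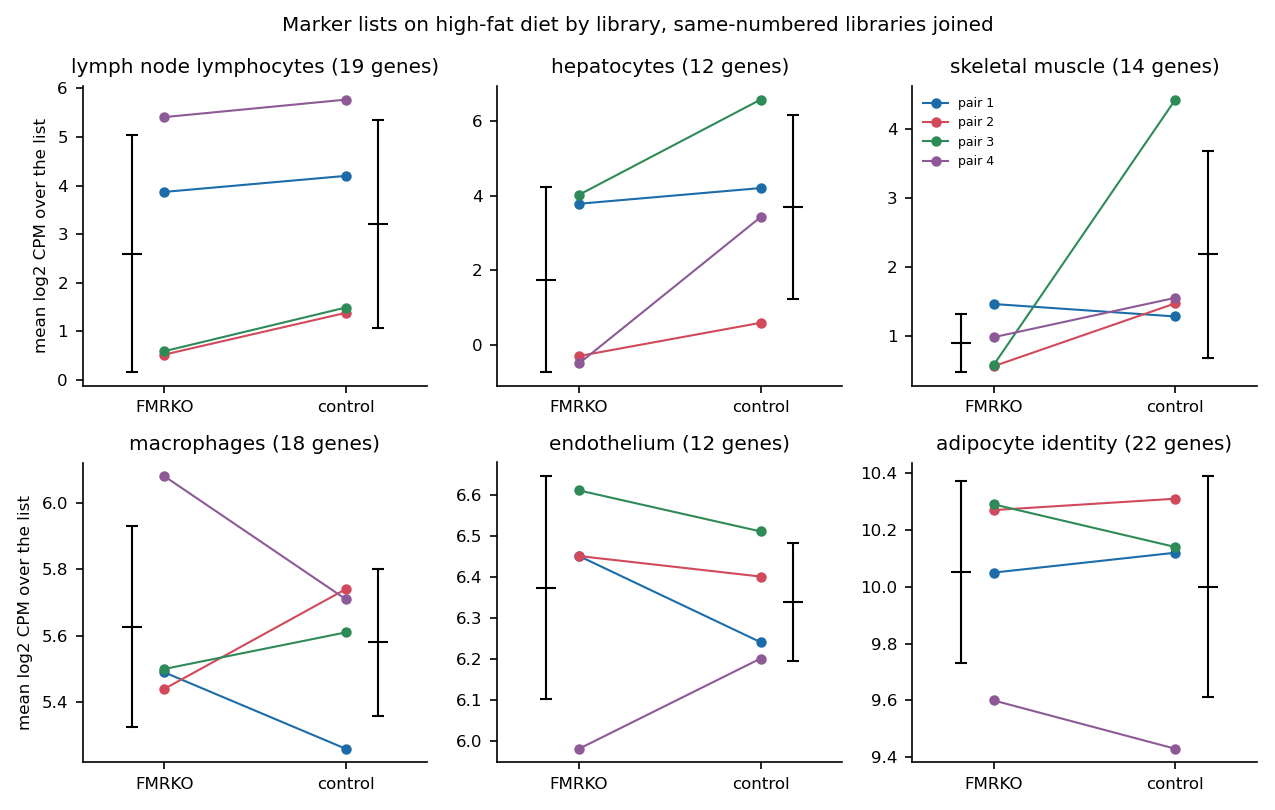
Mean log2 CPM over each marker list (y axes, which do not start at 0) in the FMRKO and control libraries on high-fat diet, with lines joining the libraries of a pair and black bars for the mean ± SD of a group (n = 4). The lymph node score separates pairs 1 and 4 (3.87 to 5.77) from pairs 2 and 3 (0.52 to 1.49), control 3 is highest for skeletal muscle (4.42) and hepatocytes (6.57), and adipocyte identity spans 9.43 to 10.31.

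Markers of the other cells of the pad held 0 genes past the threshold. Of the 18 macrophage markers, 0 had an unadjusted p under 0.05, and their summed level was 1353 to 1944 CPM in FMRKO and 1190.0 to 1718 CPM in control libraries. For 18 preadipocyte and fibroblast markers, 3 were higher and 1 lower at an unadjusted p under 0.05, with Pdgfra at 105 ± 19.7 CPM in FMRKO and 74.9 ± 9.66 CPM in control libraries (log2 fold change 0.47 ± 0.12, adjusted p = 0.194). The corresponding counts were 1 higher and 0 lower of 12 endothelial, 3 and 0 of 7 erythrocyte, 3 and 0 of 11 Schwann cell, 0 and 2 of 6 epithelial and 0 and 4 of 14 skeletal muscle markers. Of all genes, 4.26% were higher and 6.98% lower at that level. The skeletal muscle score was 4.42 in control 3, against 1.28 to 1.55 in the other controls and 0.56 to 1.46 in FMRKO libraries. In tissue pieces, fewer cells of a type and less RNA per cell cannot be told apart.

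Of the lists on fat cell identity and lipid metabolism, 1 gene passed the threshold, Cfd. Of 22 adipocyte identity genes, Cfd was called and 3 were higher and 2 lower at an unadjusted p under 0.05 (4.26% and 6.98% of all genes). The median log2 fold change was -0.02, against -0.01 over all genes. Adipoq, the adiponectin gene, averaged 1240.0 ± 203 CPM in FMRKO and 1215 ± 320.1 CPM in control libraries (log2 fold change 0.06 ± 0.09, adjusted p = 0.886). Lep, the leptin gene, averaged 1413 ± 333 CPM in FMRKO and 1736 ± 351 CPM in control libraries (log2 fold change -0.31 ± 0.11, adjusted p = 0.327). Pparg, the master regulator of fat cells, had a log2 fold change of 0.12 ± 0.07 (adjusted p = 0.63). Adrb3, the fat cell beta-adrenergic receptor, averaged 403 ± 111 CPM in FMRKO and 219.8 ± 135 CPM in control libraries (log2 fold change 1.07 ± 0.23, adjusted p = 0.134), which did not pass.

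Lipid and mitochondrial lists held 0 called genes each. Among 19 genes of lipogenesis and triglyceride synthesis, 2 were higher and 1 lower at an unadjusted p under 0.05, against 4.26% and 6.98% of all genes. Thrsp, a lipogenic regulator, had a log2 fold change of 0.46 ± 0.14 and Me1, the malic enzyme, of -0.45 ± 0.15 (adjusted p = 0.263 and 0.311). Of 20 cholesterol synthesis genes, 0 were higher and 5 lower at that level, with a median of -0.11, against -0.01 over all genes. Hmgcs1, which makes HMG-CoA, averaged 308 ± 97.4 CPM in FMRKO and 399 ± 92.1 CPM in control libraries (log2 fold change -0.39 ± 0.10, adjusted p = 0.169). The score of that list was lower in FMRKO in pairs 1, 2 and 4 (differences of -0.13, -0.19 and -0.12) and 0.01 higher in pair 3. Of 22 oxidative phosphorylation genes 1 was lower, and of 19 genes of fatty acid oxidation and the TCA cycle 3 were lower, at an unadjusted p under 0.05. In 14 thermogenic genes, 1 was higher and 3 lower at that level. Prdm16, a regulator of beige fat, stood at -0.29 ± 0.07 and Ucp1, the uncoupling protein, at -0.37 ± 0.41 on the log2 scale (adjusted p = 0.178 and 0.822).

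The corticosteroid-responsive list (21 genes tested) included Ddit4, which fell. At an unadjusted p under 0.05, 7 of its genes were higher and 3 lower (4.26% and 6.98% of all genes), with a median of 0.14, against -0.01 over all genes. Zbtb16, a strongly glucocorticoid-induced transcription factor, averaged 185 ± 85.8 CPM in FMRKO and 127 ± 38.1 CPM in control libraries (log2 fold change 0.48 ± 0.12, adjusted p = 0.181). Lcn2, the lipocalin 2 gene, averaged 3.88 ± 1.31 CPM in FMRKO and 6.13 ± 2.94 CPM in control libraries (log2 fold change -0.61 ± 0.15, adjusted p = 0.182). Neither passed.

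Of 24 glutathione and antioxidant genes, Gsta4 was called, and 6 were higher and 1 lower at an unadjusted p under 0.05 (4.26% and 6.98% of all genes). Gpx3, the secreted glutathione peroxidase, averaged 261 ± 43.3 CPM in FMRKO and 177 ± 22.7 CPM in control libraries (log2 fold change 0.55 ± 0.13, adjusted p = 0.154). Of 20 extracellular matrix genes, 0 were called, and 7 were higher and 1 lower at an unadjusted p under 0.05, beside the same shares of all genes. The median was 0.23, against -0.01 over all genes. Col6a1, a chain of collagen VI, averaged 697 ± 75.3 CPM in FMRKO and 522 ± 98.6 CPM in control libraries (log2 fold change 0.43 ± 0.08, adjusted p = 0.107). Lox, the collagen cross-linking enzyme, had a log2 fold change of -0.33 ± 0.07 (adjusted p = 0.136). The list's score was 0.05, 0.22 and 0.46 higher in FMRKO in pairs 1, 3 and 4 and -0.11 in pair 2.

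Of 19 inflammatory mediators, 0 were called and 1 was higher and 1 lower at an unadjusted p under 0.05 (4.26% and 6.98% of all genes). Saa3, the serum amyloid A gene of fat and macrophages, averaged 6.93 ± 0.802 CPM in FMRKO and 4.76 ± 2.16 CPM in control libraries (log2 fold change 0.61 ± 0.20, adjusted p = 0.295). In the circadian clock list of 19 genes, 2 were higher and 3 lower at that level and 0 were called. Npas2, an activator of the clock, averaged 4.44 ± 1.69 CPM in FMRKO and 2.18 ± 0.807 CPM in control libraries (log2 fold change 1.02 ± 0.21, adjusted p = 0.132). Bhlhe41, a repressor of the clock, had a log2 fold change of -0.62 ± 0.13 (adjusted p = 0.134). Of 18 mitotic genes 0 had an unadjusted p under 0.05, of 18 immediate-early genes 1 was lower, and of 16 translation initiation genes 2 were higher, with Eif4a2 the 1 called.

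Just outside the threshold stood Cep70, Sept5 and Rgma. Cep70 had an adjusted p of 0.051, Sept5 of 0.0515 and Rgma of 0.0558, while Rasd1, Dio1 and Plekha6 lay just inside it at 0.0496, 0.0499 and 0.0499. Among the 10 genes in each direction with the smallest p beyond the threshold, a mean of at least 1 CPM and one direction in all pairs, were some with known roles in fat or growth. Igf2, a growth factor, averaged 14.9 ± 3.41 CPM in FMRKO and 9.79 ± 2.21 CPM in control libraries (log2 fold change 0.61 ± 0.10, adjusted p = 0.0775). The complement gene C2 stood at 0.75 ± 0.13 and the cell cycle inhibitor Cdkn1a at 0.43 ± 0.07 (adjusted p = 0.0775 and 0.0775). In the other direction, Spry4, an inhibitor of receptor tyrosine kinase signalling, averaged 27.2 ± 6.46 CPM in FMRKO and 52.5 ± 22 CPM in control libraries (log2 fold change -0.90 ± 0.14, adjusted p = 0.0671).

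Chromosome 9 held 7 of the called genes among 954 tested (0.734%), and the other chromosomes held 32 of 16530 (0.194%). The 7 were Zfp949, Gsta4 and Sema3b, higher in FMRKO, and Rpl29, Ppm1m, Sh3bgrl2 and Angptl8, lower. Relative to the start of Zfp949, Gsta4 lies 10.4 Mb and Sh3bgrl2 5.0 Mb before it, Ppm1m, Rpl29 and Sema3b lie 17.6, 17.9 and 19.0 Mb after it, and Angptl8 lies 66.7 Mb before it. At an unadjusted p under 0.05, 16.5% of the genes of chromosome 9 differed, against 11.2% of all genes. Within 2 Mb of Zfp949, 29 genes were tested and Zfp949 was the 1 called, with 3 higher and 8 lower at an unadjusted p under 0.05. Rwdd2a, in that interval, averaged 1.5 ± 0.536 CPM in FMRKO and 3.7 ± 1.29 CPM in control libraries (log2 fold change -1.30 ± 0.21, adjusted p = 0.0671). Within 500 kb of Adipoq on chromosome 16, whose promoter drives Cre, 19 genes were tested, Eif4a2 was called higher, and 2 were higher and 5 lower at an unadjusted p under 0.05. Which transgene line and what genetic background the mice had is not given in the sources used here, and the part of either in these values was not tested.

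**Figure D4:**
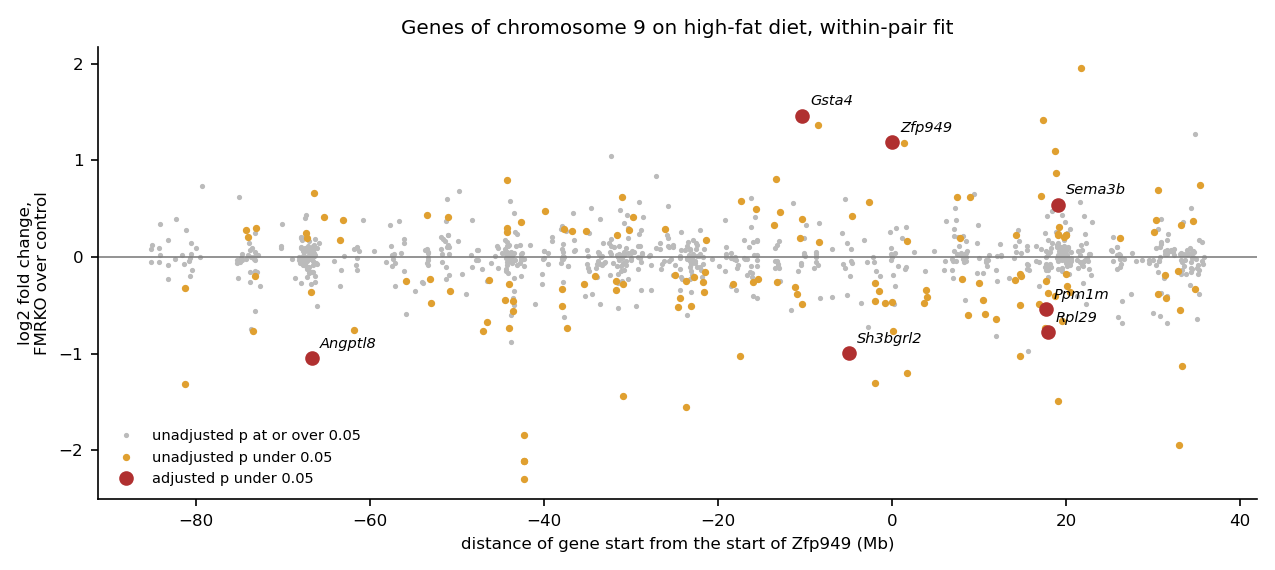
Fitted log2 fold change of FMRKO over control within pairs (y axis) for the 954 tested genes of chromosome 9, by the distance of the gene start from that of Zfp949 in Mb (x axis), with the 7 genes past the threshold named. Of these 7, 5 lie between -10.4 and 17.9 Mb, Sema3b lies at 19.0 Mb and Angptl8 at -66.7 Mb.

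Promoters of the called genes were read for the half-site of the shared corticosteroid receptor element, AGAACA or its reverse complement TGTTCT. RefSeq (GRCm38.p6) gave windows of 300 bases, from 250 before to 50 after a RefSeq transcription start, for 26 of the 39 genes, 31 windows in all with up to 3 a gene. For 18 of the 26 a window held the gene start of the annotation used for positions here, and for 8 the RefSeq start lay elsewhere. The half-site was in at least 1 window of 5 of the 26 (19.2%), 1 of 11 higher and 4 of 15 lower genes, against 15.6% of the 11971 tested genes with a promoter. In 2 of the 5, Sh3bgrl2 and Slc1a3, the window with the half-site held that gene start. In Bcl6 the window at the gene start had none, and the half-site was in a second RefSeq promoter inside the gene. In Scn8a and Sema4d it was also in windows away from the gene start. Shown are the 2 increases that varied least, which have no half-site in this window, and Sh3bgrl2, which fell, and Slc1a3, which rose, with one, on the gene's strand with the half-site in capitals. The windows are Zfp949 at chr9:88547770-88548069 (plus strand), Eif4a2 at chr16:23107218-23107517 (plus strand), Sh3bgrl2 at chr9:83548088-83548387 (plus strand) and Slc1a3 at chr15:8710758-8711057 (minus strand).
Zfp949: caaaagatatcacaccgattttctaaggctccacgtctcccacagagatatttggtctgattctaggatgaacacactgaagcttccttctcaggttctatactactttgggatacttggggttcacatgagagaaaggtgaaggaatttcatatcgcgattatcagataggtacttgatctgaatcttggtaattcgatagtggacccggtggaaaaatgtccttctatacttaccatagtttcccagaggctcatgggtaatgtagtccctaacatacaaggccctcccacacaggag
Eif4a2: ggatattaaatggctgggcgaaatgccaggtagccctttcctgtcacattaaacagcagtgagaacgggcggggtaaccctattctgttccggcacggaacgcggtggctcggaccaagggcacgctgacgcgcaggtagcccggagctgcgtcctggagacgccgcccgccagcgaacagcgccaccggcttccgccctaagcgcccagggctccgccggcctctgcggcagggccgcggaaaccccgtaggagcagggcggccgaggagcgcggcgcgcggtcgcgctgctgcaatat
Sh3bgrl2: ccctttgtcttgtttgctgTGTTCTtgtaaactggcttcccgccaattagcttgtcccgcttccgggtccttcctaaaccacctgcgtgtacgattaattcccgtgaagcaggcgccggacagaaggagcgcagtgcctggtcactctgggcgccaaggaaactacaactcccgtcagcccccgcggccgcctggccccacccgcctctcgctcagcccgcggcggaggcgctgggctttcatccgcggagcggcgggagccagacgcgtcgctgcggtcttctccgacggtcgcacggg
Slc1a3: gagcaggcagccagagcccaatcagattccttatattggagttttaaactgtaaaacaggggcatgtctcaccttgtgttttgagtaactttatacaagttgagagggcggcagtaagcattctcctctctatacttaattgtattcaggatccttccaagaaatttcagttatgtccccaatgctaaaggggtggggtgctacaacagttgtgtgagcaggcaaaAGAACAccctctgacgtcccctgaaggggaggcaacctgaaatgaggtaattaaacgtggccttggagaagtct
The half-site starts 231 bases before the RefSeq start in Sh3bgrl2 and 24 bases before it in Slc1a3, beside a decrease and an increase. A match is a description of these letters and not a binding site.

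The same genotypes with corticosterone and on chow gave side-by-side values for the 39 genes, from 1 fit of all 24 libraries without pairing. With corticosterone, 30 of the 39 had the direction of the high-fat diet, and 8 had it at an unadjusted p under 0.05: Zfp949, Rpl29, Gsta4, Bcl6, Eif4a2, Ppm1m, Gm11868 and Gbp11. That level was reached by 4.28% of all genes in either direction, 3.1% higher and 1.17% lower. On chow, 19 of the 39 had the direction of the high-fat diet, and 6 had it at an unadjusted p under 0.05: Zfp949, Gsta4, Eif4a2, Gadd45g, Ppm1m and Gm11868. Here 11.9% of all genes reached that level in either direction, 6.52% higher and 5.41% lower. The share of all genes that kept their high-fat diet direction was not counted for either condition. There were 4 genes with the opposite direction at that level on chow, Sbk1, Kif21b, Smtnl2 and B4galnt1, and 0 with corticosterone. On chow Smtnl2 rested on FMRKO 5, at 55.7 CPM against 0.779 to 1.03 CPM in the other FMRKO libraries. Kif21b was at 206 and 146 CPM in chow FMRKO 1 and 3, against 19.3 and 31.6 CPM in FMRKO 2 and 5. B4galnt1 was at 155 and 115 CPM in chow FMRKO 1 and 3, against 11.8 and 15.8 CPM in FMRKO 2 and 5. In the chow libraries, scaled together with all 24, the 19 lymphocyte genes summed to 170.8 to 1600.0 CPM in FMRKO and 112.2 to 777.0 CPM in controls, and the skeletal muscle genes to 28160.0 CPM in FMRKO 5, against 64.1 to 168.8 CPM in the other chow FMRKO libraries and 66.28 to 138.3 CPM in chow controls. Their part in the chow values was not tested. Zfp949 had a log2 fold change of 1.00 ± 0.08 with corticosterone and 1.46 ± 0.08 on chow (adjusted p = 2.11e-06 and 1.88e-09). Eif4a2 had 0.52 ± 0.09 and 0.61 ± 0.09 (adjusted p = 0.0541 and 0.0058). Gsta4 had 1.4 ± 0.31 with corticosterone and 0.92 ± 0.31 on chow (adjusted p = 0.48 and 0.288).

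Cfd, Slc43a1 and Bcl6 did not pass the threshold in either condition, nor on high-fat diet in the same fit without pairing, where their log2 fold changes were 0.98 ± 0.33, 1.42 ± 0.25 and -1.52 ± 0.32 (adjusted p = 1, 0.0915 and 0.314). Cfd averaged 1973 ± 636 CPM in FMRKO and 1488 ± 344 CPM in control libraries with corticosterone (log2 fold change 0.41 ± 0.32), and 12656 ± 3681 CPM in FMRKO and 16308 ± 3134 CPM in control libraries on chow (-0.37 ± 0.32). Slc43a1 averaged 56.3 ± 4.63 CPM in FMRKO and 47.5 ± 10.2 CPM in control libraries with corticosterone (0.25 ± 0.24), and 153 ± 49.7 CPM in FMRKO and 152 ± 24.3 CPM in control libraries on chow (0.01 ± 0.24). Bcl6 averaged 96.3 ± 41.6 CPM in FMRKO and 158 ± 50.8 CPM in control libraries with corticosterone (-0.71 ± 0.32, adjusted p = 1), and 68.9 ± 23.3 CPM in FMRKO and 56.1 ± 24.2 CPM in control libraries on chow (0.30 ± 0.32).

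The difference of the knockout effect between high-fat diet and the other conditions passed the threshold for 0 of 19717 genes in edgeR, against chow (1939 genes, 9.83%, at an unadjusted p under 0.05, and 13 past the threshold in DESeq2) and against corticosterone (636 genes, 3.23%, and 1 in DESeq2). For Slc43a1 it was 1.41 ± 0.35 against chow (unadjusted p = 0.00055, adjusted p = 0.481) and for Bcl6 -1.81 ± 0.45 (unadjusted p = 0.00064, adjusted p = 0.481). Of the 39 genes, 18 (46.2%) had an unadjusted p under 0.05 in edgeR for the difference from chow and 4 (10.3%) for that from corticosterone. The 39 genes were chosen on the high-fat diet values, which enter these differences, so their own differences are a description. In edgeR no called gene is therefore shown to respond on the high-fat diet alone. Whether any of the 39 was among the genes past the threshold in DESeq2 is not given here.

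**Figure D5:**
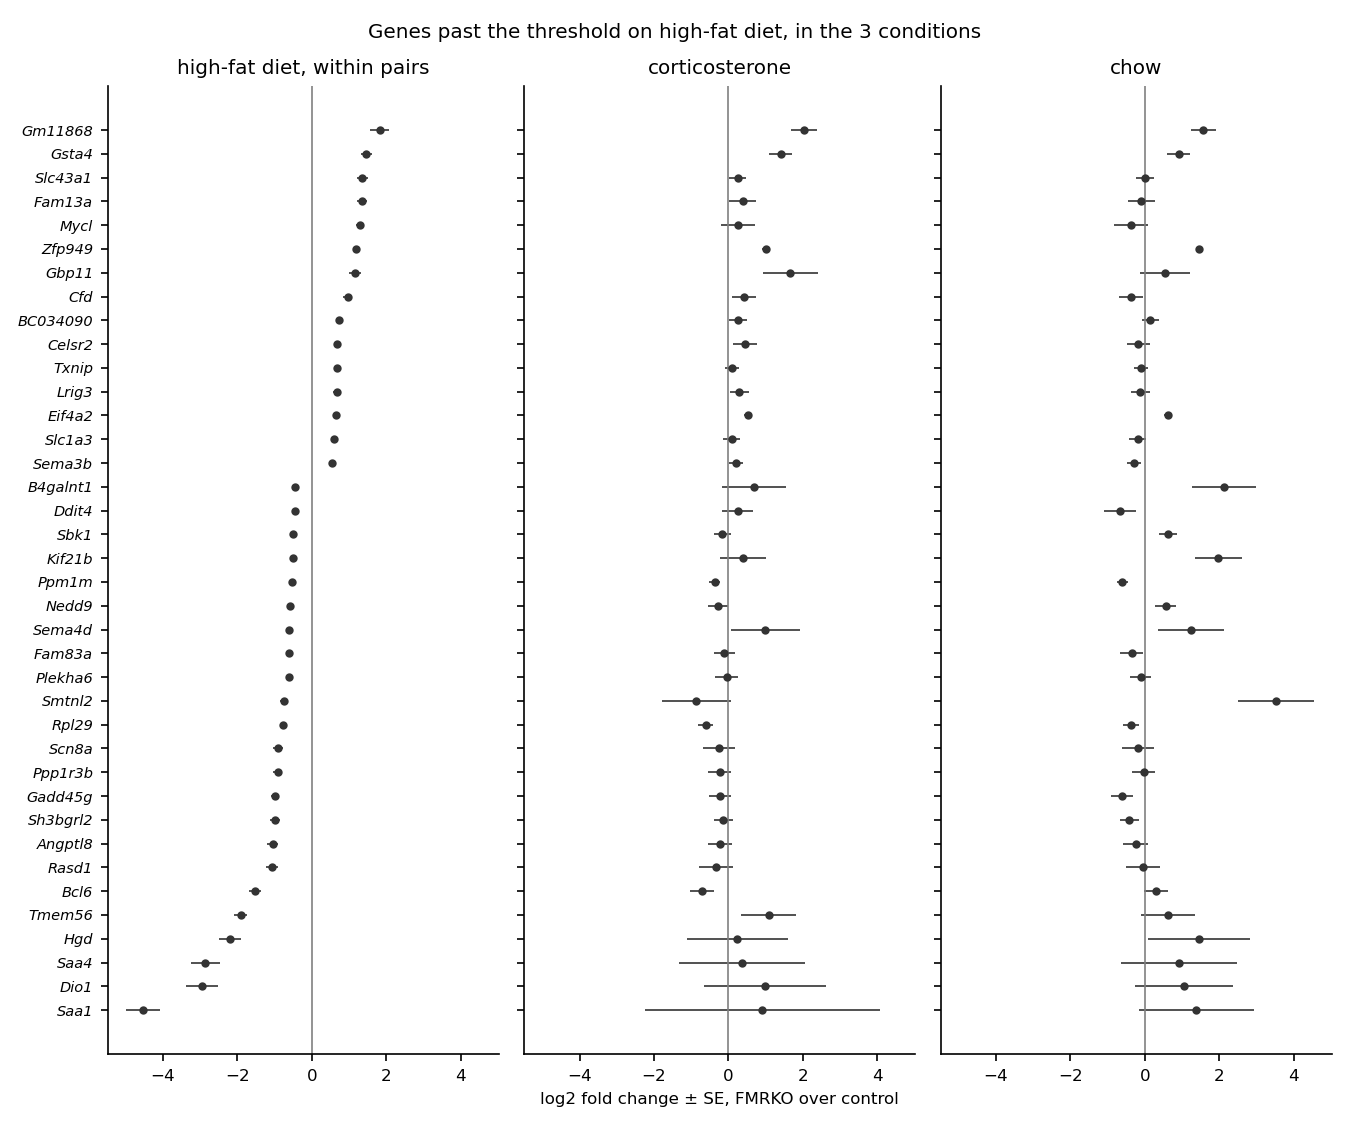
Log2 fold change of FMRKO over control (x axes, bars are ± SE) for 38 of the 39 genes past the threshold on high-fat diet (y axis), within pairs on high-fat diet and from the fit of all 24 libraries with corticosterone and on chow (4 libraries a group). Zfp949, Eif4a2, Gsta4 and Gm11868 are above 0 in all 3 panels, while Fam13a, Mycl and Cfd lie below 0 on chow.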

How the data were processed

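Per the labels' protocols, RNA of frozen inguinal fat was isolated with TRIzol and a PureLink kit and depleted of ribosomal RNA before sequencing. Per the submitters' processing notes, the authors aligned to GRCm38 with STAR 2.5.1a and counted reads per gene with featureCounts 1.4.6p-5. Not given in the sources used here are the annotation, the strand setting and the handling of multimapping reads. The deposited counts of 41388 genes were used, and the authors' CPM and RPKM columns, which recompute from the counts, were checked and not used further. Symbols came from GENCODE M21 and matched 97.3% of genes.

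Groups and pair numbers came from the labels. The 8 high-fat diet libraries were fitted in edgeR 4.0.16 (R 4.3.3) with genotype and the replicate number as a block: filterByExpr with a minimum count of 10, TMM, the quasi-likelihood test, and Benjamini-Hochberg adjustment over 17484 genes with a threshold of 0.05. The number was used as a pair because the comparison was set out with same-numbered titles paired. The correlations were computed on the same counts, with lymph node and muscle genes included. The highest correlations with another number were 0.14 to 0.29. All 8 libraries correlated best with their own number, narrowly so for FMRKO 1. The common dispersion was 0.0182 within pairs (a biological coefficient of variation of 13.5%) and 0.113 without pairing (33.6%), with 3 residual degrees of freedom. No 2 libraries agreed within sampling noise. CPM in the text are TMM-normalised, errors of log2 fold changes are SE, and errors of CPM are SD. Other conditions and differences between them came from a fit of all 24 libraries (19717 genes). DESeq2 1.42.0, limma 3.58.1, other filters and scalings, covariates and left-out pairs were alternatives. On simulated counts, with 100 genes changed by a log2 of 1 and 100 by a log2 of 2, the fit within pairs called 28 unchanged genes. These were 14.43% of its calls, above the nominal level of 0.05, a share that holds for that number of changed genes only.

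Members, gene lists and tests were chosen with earlier results of these data known. Genes named were called genes (the 10 largest each way), the targeted gene and preset genes of fat and corticosteroid biology, the 10 nearest misses each way, and the members of each list with the smallest p. Exceptions are stated, and 1 called gene is counted in the totals and not reported here.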

Additional observations from a re-analysis of the deposited data

Results flagged for a closer look

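Of 126 groups of 4 values tested, 8 held a library that stood apart from the other 3 of its group by Dixon's criterion, and chance flags about 1 in 20. Skeletal muscle genes had a mean log2 CPM of 4.42 in control 3, against 1.28 to 1.55 in the other controls. Saa1 was at 0.597 CPM in FMRKO 3 (others 0 to 0.0662) and at 15.3 CPM in control 3 (others 0.248 to 0.647). Saa4 was at 20.4 CPM in control 3, against 0.207 to 3.16 in the other controls. Sema3b was at 17.0 CPM in control 4, against 22.5 to 23.6 in the other controls. The glutathione and antioxidant score was 5.8 in control 4 (others 6.31 to 6.4), the macrophage score 6.08 in FMRKO 4 (others 5.44 to 5.5) and the Schwann cell score 2.27 in control 2 (others 2.56 to 2.61).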

How the results depend on the processing

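The count of 39 called genes was 43 with RLE size factors, 49 in limma voom and 42 with at least 1 CPM in 4 libraries. It was 332 in DESeq2 and 553 with no filter on low counts, which included all 39. With no replicate block it was 1 on the 8 libraries and 2 on all 24, and with the replicate block on all 24 libraries it was 5. Leaving out a pair gave 0 to 245, and leaving out the lymph node rich pairs 1 and 4 gave 421, with 2 pairs left. It was 0 with the lymph node and muscle scores in place of the block (830 genes at an unadjusted p under 0.05), and, with scores chosen after seeing the data, 3 with the hepatocyte score (of which 1, Bcl6, was shared) and 0 with the lymph node score (618 genes unadjusted) beside the block. The cause was not tested. The 5 called list members became 0 and 1 with no block (8 and 24 libraries), 2 with the block on all 24, 19 in DESeq2, 43 with no filter, 0 to 19 without a pair, 32 without pairs 1 and 4, and 0 with any score. Differences between conditions passed for 13 genes (chow) and 1 gene (corticosterone) in DESeq2, against 0 in edgeR. Of 811 single-gene values, 335 lost the call, all of them values of the 39 genes, 11 gained it and 8 changed sign. No sign change was among the 39 genes, which were chosen on these libraries with one direction in all pairs. Leaving out a pair gave log2 fold changes of -0.0213 to 0.0981 for Adipoq, -0.203 to 0.0178 for Sgk1 and -0.757 to 0.141 for Ucp1. Adipoq was -0.0402 without pairs 1 and 4 and -0.110 with the hepatocyte score. With the lymph node score, Nr3c1 was 0.0562, Hsd11b1 0.00528 and Sgk1 0.464. The fit within pairs had 3 residual degrees of freedom, and fewer remained with a score beside the block or with a pair left out. The effect of depth on the calls was not tested.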

Other observations

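Of the 16 mitochondrially encoded genes tested, 0 passed the threshold and 7 (43.8%) had an unadjusted p under 0.05, all of them lower in FMRKO. Over all genes the share was 11.2%, with 6.98% lower. mt-Atp8, a subunit of ATP synthase, averaged 6.67 ± 1.44 CPM in FMRKO and 13.2 ± 3.87 CPM in control libraries (SD, n = 4 each), a log2 fold change of -0.96 ± 0.15 (SE, adjusted p = 0.0681, edgeR). The mitochondrially encoded share of all counts was 3.35%, 3.94%, 3.89% and 3.41% in FMRKO libraries 1 to 4, against 4.42%, 4.52%, 4.14% and 3.23% in controls 1 to 4, lower in FMRKO in pairs 1 to 3 and higher in pair 4. This pattern was noticed in the data. Gm13841, a second low pseudogene, averaged 2.27 ± 0.478 CPM in FMRKO and 0.791 ± 0.313 CPM in control libraries (log2 fold change 1.53 ± 0.31, adjusted p = 0.119).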
